A study of Homo sapiens with 6 samples.

Results

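The genes examined here encode kinases that phosphorylate serine/arginine-rich (SR) proteins or that link transcription to splicing. The 10 members were chosen by name, as CLK1, CLK2, CLK3, CLK4, SRPK1, SRPK2, PRPF4B, DYRK1A, CDK12 and CDK13, from 58735 genes in the count table. The rule used their names and no threshold on a measured value, but they were chosen with earlier results of these data known. LoVo, an established human colorectal adenocarcinoma cell line, was transfected either with a negative control siRNA (si-NC, 3 samples) or with siRNA against the splicing factor SRSF11 (si-SRSF11, 3 samples), and the sequenced libraries were made from polyadenylated RNA. The study designed several SRSF11 siRNAs, and which of them was used for these libraries and how long after transfection the RNA was taken are not given in the sources used here. The study describes the replicates as 3 pairs of independent RNA samples, all from 1 cell line. The main test did not use pairs, and p-values measure the spread between these samples, which may be partly technical.

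SR proteins carry an RNA recognition domain and a tail of repeated arginine and serine residues, the RS domain, whose serines are phosphorylated. SRPK kinases act mostly in the cytoplasm, where phosphorylation of the RS domain lets the import factor transportin-SR (TNPO3) carry the SR protein into the nucleus. CLK kinases act in the nucleus and, by phosphorylating SR proteins further, release them from nuclear speckles towards sites of splicing. PRPF4B acts on the tri-snRNP as the spliceosome forms, DYRK1A is a nuclear kinase that also phosphorylates splicing factors, and CDK12 and CDK13, each paired with cyclin K, phosphorylate the tail of RNA polymerase II. All of these are regulated as proteins, and a transcript level says nothing of kinase activity.

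The CLK genes share an alternative exon, exon 4 of the main transcript, which lies ahead of the part that encodes the kinase domain. Skipping of this exon shifts the reading frame, since in each of the 4 genes its length leaves a remainder of 1 base when divided by 3. The exon is shown for the 4 CLK genes because the finding turns on CLK1 and CLK4, which are the closest pair. Bases come from GENCODE 29 on GRCh38 and are written 5′ to 3′ on the strand of the gene, and capitals mark the 6 positions at which CLK1 and CLK4 differ.
CLK1, chr2:200860125-200860215, minus strand: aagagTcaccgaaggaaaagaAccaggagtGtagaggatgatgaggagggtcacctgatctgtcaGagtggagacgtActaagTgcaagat
CLK4, chr5:178617344-178617434, minus strand: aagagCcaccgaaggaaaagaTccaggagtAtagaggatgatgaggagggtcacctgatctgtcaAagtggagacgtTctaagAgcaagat
CLK2, chr1:155268708-155268792, minus strand: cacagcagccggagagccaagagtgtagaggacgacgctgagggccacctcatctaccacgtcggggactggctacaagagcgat
CLK3, chr15:74622120-74622216, plus strand: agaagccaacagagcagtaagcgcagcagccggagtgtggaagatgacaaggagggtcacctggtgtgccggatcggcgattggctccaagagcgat

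CLK1 and CLK4 were identical at 93.4% of the 91 bases of this exon and at 76.2% of their coding sequences. Every other pair of CLK genes shared between 57.1% and 65.4% of coding bases, the highest being CLK2 with CLK3. SRPK1 and SRPK2 shared 62.2%, and CDK12 and CDK13 shared 54.4%. The annotation lists 1 transcript of CLK1 that skips exon 4 and 2 of CLK4. The one of CLK1 and 1 of those of CLK4 are marked as targets of nonsense-mediated decay, the pathway that removes transcripts with an early stop codon. Of CLK3, 4 annotated transcripts skip the exon, of which 2 are marked as protein-coding and 2 as targets of decay. Of CLK2, 1 does.

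The labels were checked first on the targeted gene. In the 3 si-NC samples the level of SRSF11 was 86.3 ± 1.89 CPM (SD), and in the 3 si-SRSF11 samples 49.4 ± 0.95 CPM, or 57.2% of the control. CPM, the usual unit of depth-scaled counts, is here the raw gene count relative to the library total after TMM scaling, which corrects for differences in composition. Library totals ranged from 14369525 to 16685719 counts, and log2 CPM correlated across genes at 0.994 within groups and at 0.989 to 0.990 across them, with no library standing apart. Of 10 colorectal epithelial markers 8 had a mean CPM above 1 in the libraries, while KRT20 and CEACAM5, which mark differentiated colonocytes, were near or below 1. Of 11 markers of immune, stromal, endothelial and glial cells 3 had no count in any library, and 2 had a mean CPM above 1. These were COL1A1 (12.7 CPM in si-NC and 11.7 in si-SRSF11) and ACTA2 (4.4 and 3.8). The summed level of the 11 was 17.9 to 20.9 CPM in si-NC and 16.1 to 19.7 CPM in si-SRSF11, against 5004 to 5454 CPM for the epithelial markers.

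All 10 kinase genes passed the filter on low counts (at least 10 counts in at least 3 libraries). In si-SRSF11, CLK1 and CLK4 fell, SRPK1 and PRPF4B rose, and the other 6 did not pass the test (edgeR quasi-likelihood, Benjamini-Hochberg adjusted p under 0.05 over 15801 genes). The 4 called of 10 stand beside 24.6% of all tested genes called, with 13.2% called higher and 11.4% called lower, and with 10 members no difference from that background is claimed. In 5 of the 10, the 3 si-NC and the 3 si-SRSF11 samples did not overlap, against 38.8% of all tested genes. No member passed the study's own fold threshold, a log2 fold change beyond 1 in either direction with an adjusted p under 0.05, which 1.09% of tested genes did. The members' median log2 fold change was -0.06, and that of all tested genes was 0.00.

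**Figure D1:**
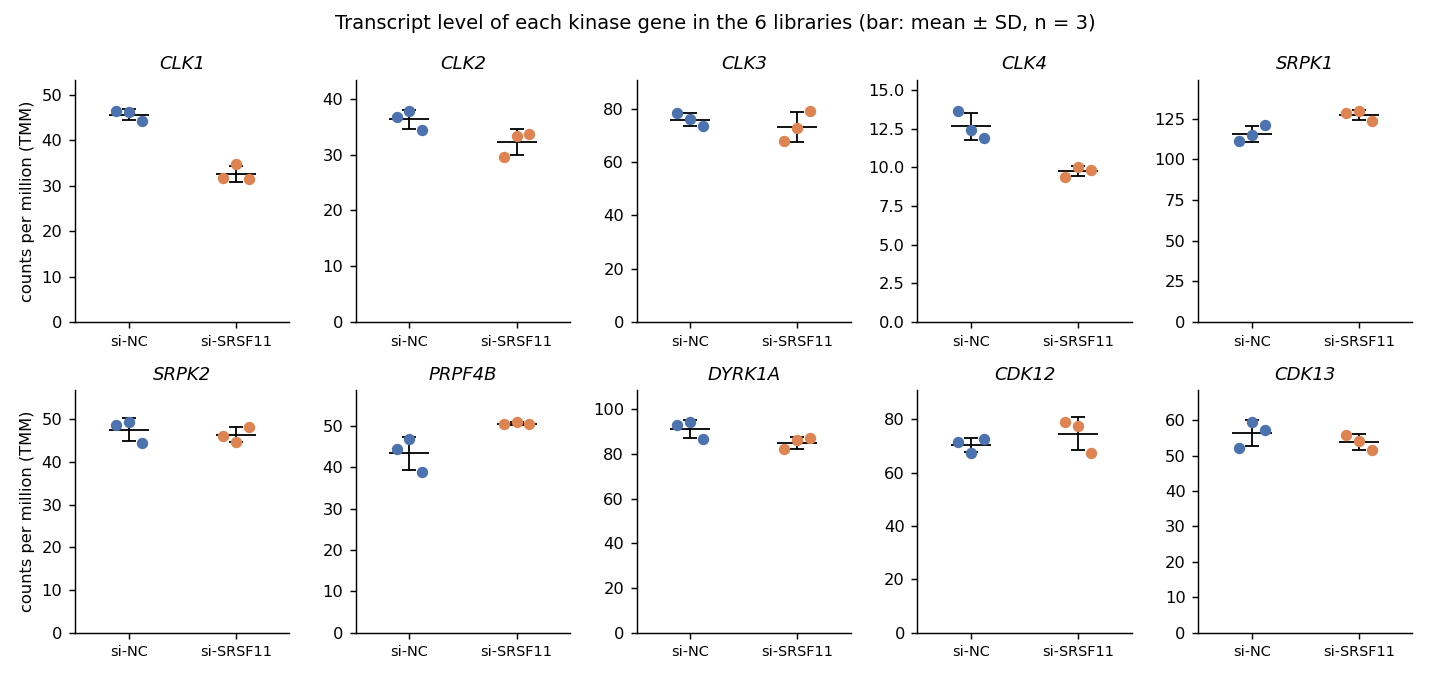
Transcript level of the 10 kinase genes in CPM after TMM scaling (vertical axes, from 0), with 1 point per library, si-NC in blue and si-SRSF11 in orange, and the mean ± SD of 3 libraries as bars. The 3 si-SRSF11 points of CLK1 (31.5 to 34.6 CPM) and CLK4 (9.38 to 10.01 CPM) lie below all si-NC points, those of SRPK1 and PRPF4B lie above, and the points of CLK3, SRPK2, DYRK1A, CDK12 and CDK13 overlap.

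CLK1 (ENSG00000013441, chromosome 2, 200853009 to 200864744, minus strand) encodes a nuclear dual-specificity kinase and showed the largest change of the 10. Its level was 46.3, 46.2 and 44.2 CPM in the si-NC samples and 31.7, 34.6 and 31.5 CPM in the si-SRSF11 samples. Every si-SRSF11 sample was below every si-NC sample, and the gap between the groups was wider than the range within either. The raw counts were 673, 704 and 690 against 496, 564 and 515, although the si-SRSF11 libraries were deeper. In RNA from whole cultures, a lower level per cell and fewer cells with the transcript cannot be told apart. CLK1 fell by 0.48 on the log2 scale (SE 0.07, 95% interval -0.62 to -0.35), to 71.6% of the control (edgeR adjusted p = 1.375e-05). It remained called under each of 14 alternatives in scaling, filter, tool or samples, with log2 fold changes between -0.53 and -0.46.

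CLK4 (ENSG00000113240, chromosome 5, 178602664 to 178630615, minus strand), the closest relative of CLK1, had the lowest counts of the 10. Its level was 13.6, 12.4 and 11.9 CPM in si-NC and 9.38, 10.01 and 9.86 CPM in si-SRSF11, from 186 to 198 and 147 to 163 raw counts. The groups did not overlap. CLK4 fell by 0.37 on the log2 scale (SE 0.11, 95% interval -0.61 to -0.14), to 77.2% of the control (edgeR adjusted p = 0.0169). Without si-NC replicate 1, its highest sample, the log2 fold change was -0.32 and the adjusted p 0.0926, so the call rested on that sample.

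CLK1 and CLK4 together went from 58.2 ± 1.94 to 42.4 ± 1.99 CPM (SD, n = 3), a decrease of 27.3%. The ratio of CLK1 to CLK4 counts was 3.40, 3.73 and 3.71 in si-NC and 3.37, 3.46 and 3.20 in si-SRSF11, and the groups overlapped. An exact two-sided permutation test of the log2 ratio gave p = 0.2, and with 3 samples against 3 it cannot go below 0.1. The difference of -0.11 in the log2 ratio compares with SDs of 0.07 and 0.06. Whether the changes of both genes differed was not resolved with these samples.

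CLK2 (ENSG00000176444, chromosome 1, 155262868 to 155278491, minus strand) and CLK3 (ENSG00000179335, chromosome 15, 74598500 to 74645414, plus strand), nuclear kinases of the same family, did not pass the test. CLK2 was at 36.8, 37.8 and 34.5 CPM in si-NC and 29.6, 33.4 and 33.8 CPM in si-SRSF11, without overlap but with a gap of under 1 CPM. Its log2 fold change was -0.17 (SE 0.07, 95% interval -0.32 to -0.02), with an adjusted p of 0.0909 by edgeR. With scaling to library size alone its log2 fold change was -0.21 and passed (adjusted p = 0.0424). CLK3 was at 78.2, 76.3 and 73.3 CPM in si-NC and 67.9, 72.6 and 79.0 CPM in si-SRSF11, where its lowest and its highest value both occurred. Its log2 fold change was -0.05, with a 95% interval of -0.17 to 0.07, which leaves out a decrease of the size of that of CLK1.

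The summed level of the 4 CLK genes was 175, 173 and 164 CPM in si-NC and 139, 151 and 154 CPM in si-SRSF11, a decrease of 13.4% with no overlap between the groups. The ratio of CLK2 to CLK3 counts was 0.47, 0.50 and 0.47 in si-NC and 0.44, 0.46 and 0.43 in si-SRSF11. These did not overlap, and p was 0.1 by the exact permutation test, the smallest that it can give. Adjusted over the 4 ratios of related genes that were computed (CLK1 to CLK4, CLK2 to CLK3, SRPK1 to SRPK2 and CDK12 to CDK13), each p was 0.2.

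**Figure D2:**
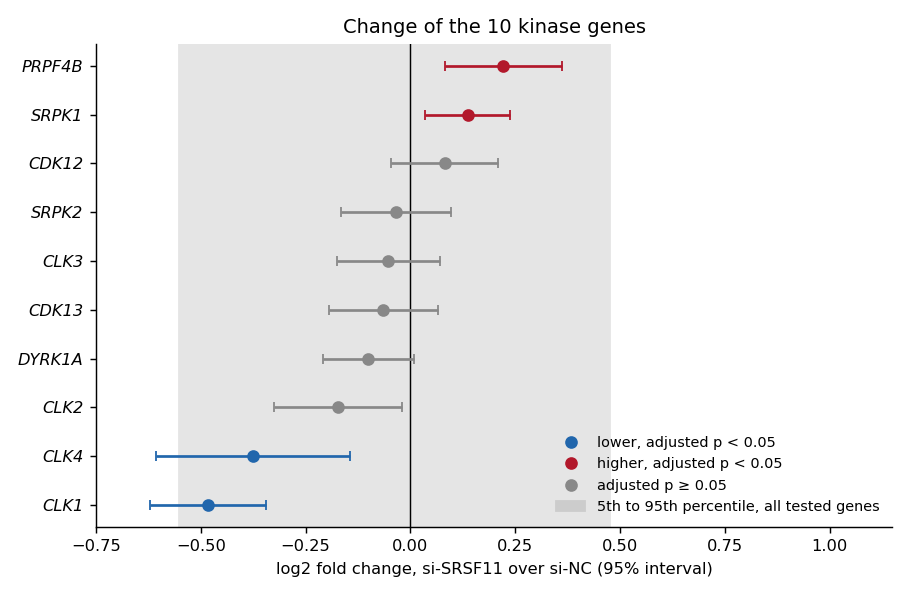
Log2 fold change of the 10 kinase genes, si-SRSF11 over si-NC, as points with 95% intervals from the edgeR fit on 6 libraries, with genes past the adjusted p threshold in blue (lower) or red (higher) and the others in grey. The grey band spans the 5th to the 95th percentile of all tested genes, -0.55 to 0.48, and each of the 10 points lies inside it, from -0.48 (CLK1) to 0.22 (PRPF4B).

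SRPK1 (ENSG00000096063, chromosome 6, 35832966 to 35921342, minus strand), the cytoplasmic kinase of SR proteins, had the most reads of the 10. Its level was 111, 115 and 121 CPM in si-NC and 129, 130 and 124 CPM in si-SRSF11. The groups did not overlap, and their nearest samples were 121 and 124 CPM. SRPK1 rose by 0.14 on the log2 scale (SE 0.05, 95% interval 0.04 to 0.24), or to 110% of the control (edgeR adjusted p = 0.0439). It was called in only 4 of the 14 alternatives and is a borderline call. With DESeq2 its log2 fold change was 0.13 (adjusted p = 0.0916), with library size alone 0.10 (adjusted p = 0.131), and without si-NC replicate 1 0.11 (adjusted p = 0.215). The call was also lost without si-NC replicate 2 (adjusted p = 0.123), si-SRSF11 replicate 1 (0.0778) or si-SRSF11 replicate 2 (0.124).

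SRPK2 (ENSG00000135250, chromosome 7, 105110704 to 105399308, minus strand), its paralog, overlapped between the groups. It was at 48.8, 49.4 and 44.5 CPM in si-NC and 46.2, 44.8 and 48.3 CPM in si-SRSF11. SRPK2 had a log2 fold change of -0.03, with a 95% interval of -0.17 to 0.10. The ratio of SRPK1 to SRPK2 counts was 2.28, 2.33 and 2.72 in si-NC and 2.78, 2.90 and 2.56 in si-SRSF11, with overlap. The exact permutation test gave p = 0.2 and cannot go below 0.1 with 3 samples against 3. It therefore cannot decide whether SRPK1, which passed, changed differently from SRPK2, which did not. Both genes together were at 163 ± 3.00 CPM in si-NC and 174 ± 1.53 CPM in si-SRSF11 (SD, n = 3).

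PRPF4B (ENSG00000112739, chromosome 6, 4021267 to 4064983, plus strand), the kinase of the tri-snRNP, rose. Its level was 44.4, 46.8 and 39.0 CPM in si-NC and 50.4, 50.9 and 50.3 CPM in si-SRSF11. All 3 si-SRSF11 samples were higher and nearly equal, while the si-NC samples spread more widely. The log2 fold change was 0.22 (SE 0.07, 95% interval 0.08 to 0.36), or 117% of the control (edgeR adjusted p = 0.0188). Without si-NC replicate 3, its lowest sample, the log2 fold change was 0.15 and the adjusted p 0.151. The call was also lost without si-SRSF11 replicate 2 (adjusted p = 0.0535) and with library size alone (adjusted p = 0.0515).

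DYRK1A (ENSG00000157540, chromosome 21, 37365573 to 37526358, plus strand) was at 92.9, 94.4 and 86.8 CPM in si-NC and 82.1, 86.2 and 87.3 CPM in si-SRSF11. Between the groups, only si-NC replicate 3 and si-SRSF11 replicate 3 crossed. DYRK1A had a log2 fold change of -0.10, with a 95% interval of -0.21 to 0.01 and an edgeR adjusted p of 0.174.

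CDK12 (ENSG00000167258, chromosome 17, 39461511 to 39564907, plus strand) and CDK13 (ENSG00000065883, chromosome 7, 39949646 to 40099580, plus strand) did not pass the test. CDK12 was at 71.5, 67.4 and 72.5 CPM in si-NC and 79.0, 77.4 and 67.5 CPM in si-SRSF11, and its log2 fold change was 0.08 (95% interval -0.05 to 0.21). CDK13 was at 52.2, 59.4 and 57.2 CPM in si-NC and 55.9, 54.2 and 51.5 CPM in si-SRSF11, and its log2 fold change was -0.06 (95% interval -0.19 to 0.06). The ratio of CDK12 to CDK13 counts was 1.37, 1.13 and 1.27 in si-NC and 1.41, 1.43 and 1.31 in si-SRSF11, with overlap (exact permutation p = 0.2). These intervals leave room for a rise of CDK12 or a fall of CDK13 of about the size of the rise of PRPF4B.

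Over the 10 genes, the summed level was 595 ± 10.1 CPM in si-NC and 586 ± 7.05 CPM in si-SRSF11 (SD, n = 3), a decrease of 1.62% that was smaller than the spread between samples.

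**Figure D3:**
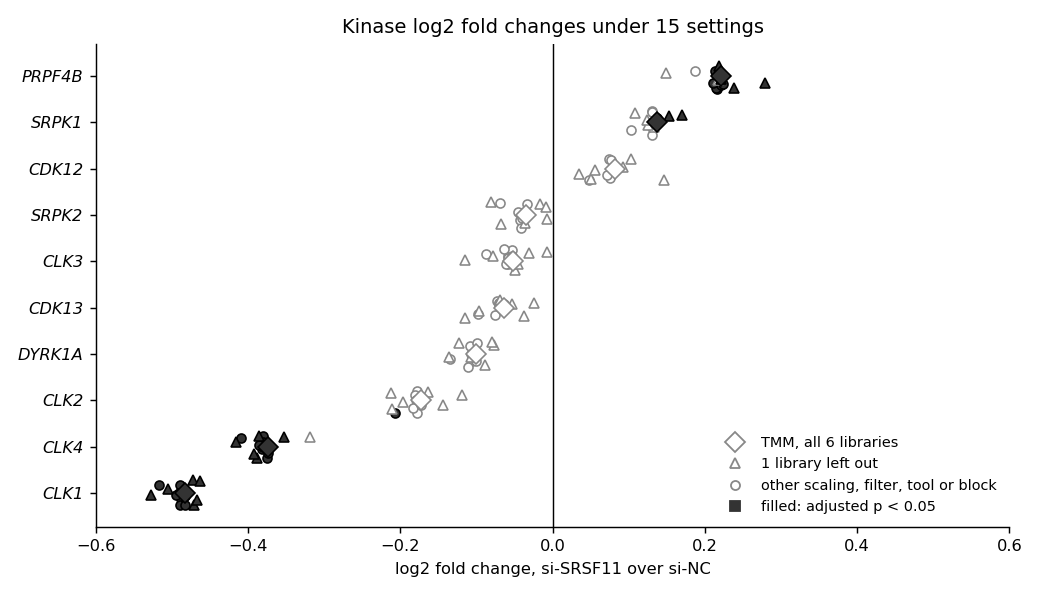
Log2 fold change of each kinase gene, si-SRSF11 over si-NC, under 15 settings, with the reported value as a large diamond, fits that leave out 1 library as triangles, and other scalings, filters, tools or the replicate block as circles, filled where the adjusted p was under 0.05. CLK1 was filled in all 15 and ranged from -0.53 to -0.46, SRPK1 was mostly open, and no gene crossed 0.

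Levels of different genes were compared per length, as TMM-scaled CPM per kilobase, taking all annotated exon bases as the length. In si-NC the order from the top was SRPK1 at 17.3 ± 0.74, CLK2 at 9.91 ± 0.46, CLK1 at 8.82 ± 0.23, SRPK2 at 7.50 ± 0.42, PRPF4B at 5.52 ± 0.51, CDK12 at 5.52 ± 0.21, CLK3 at 3.71 ± 0.12, DYRK1A at 3.44 ± 0.15, CDK13 at 2.24 ± 0.15 and CLK4 at 1.60 ± 0.11 (SD, n = 3). PRPF4B and CDK12 were the only neighbours in this order whose samples overlapped. In si-SRSF11 CLK1 went from rank 3 to rank 5, at 6.31 ± 0.34, below SRPK2 at 7.32 ± 0.28 and PRPF4B at 6.43 ± 0.04, although its range overlapped that of PRPF4B.

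This order depended on the length that was used. CLK3 and DYRK1A have 20443 and 26602 annotated exon bases, of which their main transcripts cover 9.03% and 10.3%. With the length of the main transcript alone, CLK3 (41.1) and DYRK1A (33.4) came first in si-NC, ahead of SRPK1 (25.2). With the longest transcript, SRPK1 (24.3) came first, followed by CLK1 (14.2), and CLK3 was at 7.23. CLK4 had the lowest si-NC mean under all 3 lengths, at 1.60, 3.40 and 4.93. With the main transcript, however, its highest si-NC sample (5.31) was above the lowest of CDK13 (5.15). The counts do not show which transcripts were present, so the order of CLK3 and DYRK1A among the kinases was not resolved.

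**Figure D4:**
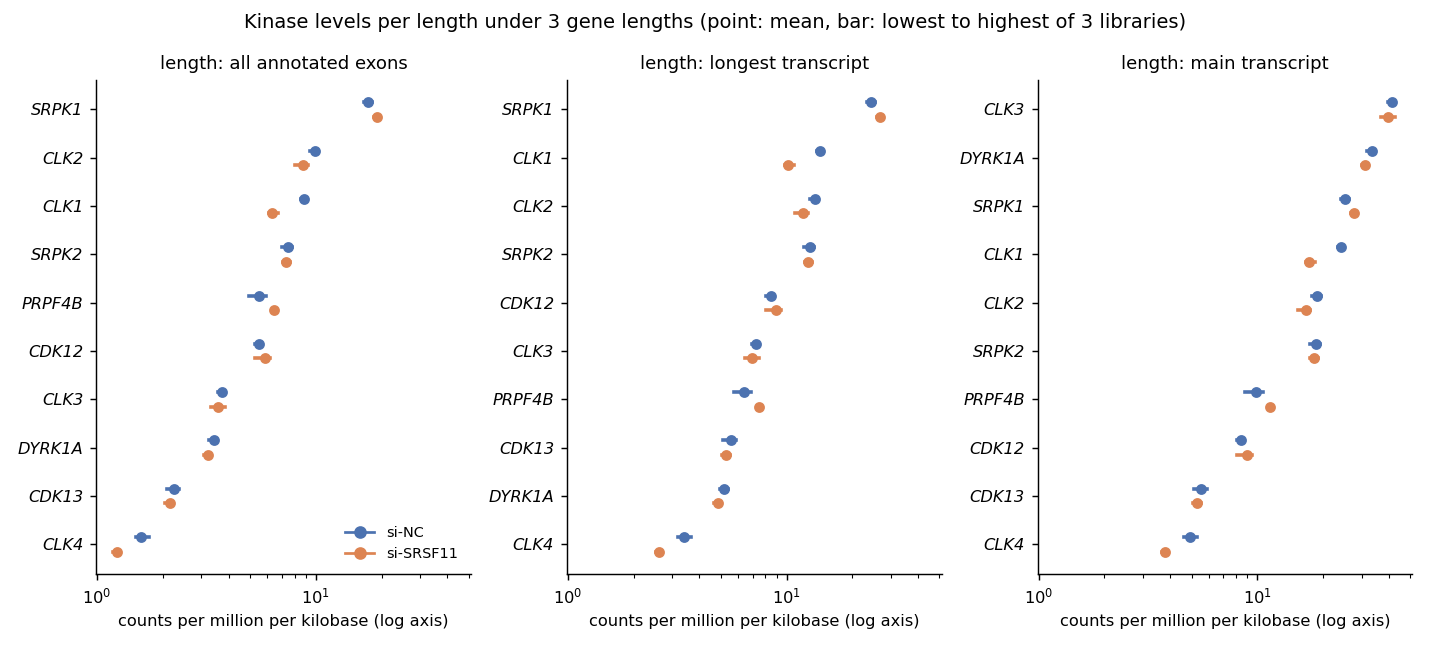
Kinase levels in TMM-scaled CPM per kilobase (logarithmic axes) under 3 definitions of gene length, with points for means and bars from the lowest to the highest of 3 libraries, si-NC in blue and si-SRSF11 in orange. CLK4 has the lowest mean in each panel. CLK3 and DYRK1A move from rank 7 and 8 with all annotated exons to rank 1 and 2 with the main transcript.

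The 10 genes differ in how much of their annotation consists of transcripts that keep an intron. CLK1 has 8 retained-intron transcripts among 15, and 46.9% of its exon bases belong to these alone, a higher share than in 95.1% of tested protein-coding genes. CLK4 has 7 among 15, and 38.3% of its exon bases, a higher share than in 90.9%. The shares were 17.8% for CLK3, 24.8% for DYRK1A, 21.9% for CDK13, 21.6% for CDK12, 16.4% for SRPK1 and 14.9% for SRPK2. CLK2 and PRPF4B have no exon base of that kind. CLK1 and CLK4 have the highest shares of the 10 and are the members that fell, while CLK3, with 8 retained-intron transcripts as well, did not pass the test. Across 731 tested protein-coding genes with 7 or more retained-intron transcripts, 113 (15.5%) were called higher and 117 (16%) lower. Their median log2 fold change was 0.00, and this grouping was chosen after the members' values were seen. Of all 12770 tested protein-coding genes, 1963 (15.4%) were called higher and 1538 (12%) lower. The share called lower was thus larger in the genes with 7 or more such transcripts, a difference that was not tested. Across the 1436 genes with over 35% of their exon bases in retained-intron transcripts alone, as in CLK1 and CLK4, 15.0% were called higher and 12.4% lower, beside 15.4% and 12% of all tested protein-coding genes. A gene count sums reads over spliced and intron-retaining transcripts and over transcripts with and without exon 4, so which of them changed was not measured.

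Promoter sequences are shown for CLK1 and CLK4, since these fell together. RefSeq (GRCh38.p14) gave 20 promoters, each 250 bases before to 50 after a transcript start, for 9 of the 10 kinases, all but PRPF4B. Capitals mark the motifs found on either strand.
CLK1, chr2:200864609-200864908, minus strand: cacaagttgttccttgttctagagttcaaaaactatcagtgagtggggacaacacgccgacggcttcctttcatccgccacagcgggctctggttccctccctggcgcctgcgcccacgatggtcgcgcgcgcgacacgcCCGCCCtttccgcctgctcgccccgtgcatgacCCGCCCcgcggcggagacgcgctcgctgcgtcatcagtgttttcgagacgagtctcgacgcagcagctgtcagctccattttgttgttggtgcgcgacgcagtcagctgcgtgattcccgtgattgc
CLK4, chr5:178627001-178627300, minus strand: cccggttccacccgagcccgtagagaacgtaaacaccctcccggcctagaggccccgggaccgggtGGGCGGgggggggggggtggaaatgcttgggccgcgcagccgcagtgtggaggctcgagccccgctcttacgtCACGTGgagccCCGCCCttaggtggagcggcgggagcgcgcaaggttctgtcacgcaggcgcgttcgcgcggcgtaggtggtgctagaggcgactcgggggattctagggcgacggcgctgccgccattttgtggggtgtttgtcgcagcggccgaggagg

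Both promoters hold 2 GC boxes (GGGCGG), a motif found at least once in 45.0% of 35116 promoters of the same length. CLK4 also holds 1 E box (CACGTG), found in 7.26% of promoters, which this CLK1 promoter lacks. A second RefSeq promoter of CLK1 (chr2:200864512-200864811), not shown, also holds 2 GC boxes and no E box. CLK2 and DYRK1A, which did not pass the test, each have a promoter of the same makeup as CLK4, with 2 GC boxes and 1 E box. The promoter of SRPK1, which rose, holds 4 GC boxes and no E box. Neither the CLK1 nor the CLK4 window holds a CCAAT box (CCAAT, in 34.6% of promoters), a cyclic AMP response element (TGACGTCA, in 1.85%) or an ETS site (CCGGAAG, in 10.3%). GC content was 62.7% in the CLK1 window and 70.7% in that of CLK4.

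Bases shared with other genes were a small share of the annotated exon bases of these loci, and shares of reads were not measured. CLK1, CLK2, PRPF4B and CDK12 share no exon base with another gene, and none of the stretches of 100 bases in the main transcripts of CLK1, CLK3, CLK4, SRPK2 and CDK12 occurs in a transcript of another gene. Of such stretches, PRPF4B shares 0.533% with BX119904.1 and CLK2 shares 1.36% with CLK2P1. Main transcripts hold 9.03% (CLK3) to 68.6% (SRPK1) of the exon bases of the kinase genes. The other exon bases were not searched in this way. CLK4 shares 2.03% of its exon bases with RN7SKP70, which had 0 to 2 counts per library. SRPK1 shares 3.96% with LHFPL5 on the other strand, with 0 to 4 counts per library. CLK3 shares 3.43% with EDC3, on the other strand, which was at 47.9 ± 2.57 CPM in si-NC and 46.9 ± 2.60 CPM in si-SRSF11, and 2.34% and 0.88% with the noncoding genes AC100835.2 and AC100835.1. SRPK2 shares 1.55% with KMT2E (31.9 ± 1.77 and 31.7 ± 4.13 CPM) and 2.14% with AC004884.2, DYRK1A shares 1.35% with AP001437.1, and CDK13 shares 0.438% with AC072061.1, all on the other strand. The kit does not mark strand, so reads from both strands of such bases cannot be told apart. The pseudogene CLK2P1 had 0 to 5 counts per library, and CLK3P2 and SRPK2P had none.

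Of 13 listed SR proteins, the main substrates of CLK and SRPK kinases, 12 were tested and 10 were higher (83.3% called, beside 24.6% of all tested genes), with a median log2 fold change of 0.29. The list includes the TRA2 proteins and leaves out the targeted gene SRSF11, which fell. The 2 tested genes that did not pass, SRSF9 and TRA2A, had log2 fold changes of -0.06 and -0.10. This group was known from earlier results on the same libraries, and its direction is no independent evidence. SRSF2, an activator of exon inclusion, went from 78.3 ± 4.98 to 102 ± 6.69 CPM. SRSF3, one of the smallest SR proteins, went from 177 ± 1.94 to 223 ± 4.84 CPM, and SRSF10, whose activity depends on its phosphorylation, from 130 ± 1.44 to 163 ± 1.56 CPM (SD, n = 3). These 3 were picked for the smallest adjusted p of the list, and in none of them did the groups overlap. Over the list, the groups did not overlap in 9 of the 12 tested genes (75%), beside 38.8% of all tested genes. The rise of SR protein transcripts and the fall of CLK1 and CLK4 come from the same contrast of si-SRSF11 with si-NC. A link between them was not tested.

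Of 28 other RS-domain proteins, which include speckle and mRNA-binding proteins, 8 were higher, 1 was lower and 19 did not pass the test (32.1% called, beside 24.6% of all tested genes), with a median log2 fold change of 0.08. BCLAF1 and THRAP3, a related pair that binds mRNP complexes, went from 41.8 ± 3.21 to 60.2 ± 2.70 CPM (log2 fold change 0.53, edgeR adjusted p = 3.604e-06) and from 141 ± 5.16 to 175 ± 12.1 CPM (0.32). NKTR, a cyclophilin with an RS domain, went from 39.4 ± 0.12 to 52.5 ± 4.19 CPM (0.41).

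Of 15 listed proteins of the tri-snRNP, on which PRPF4B acts, 5 were higher, none was lower and 10 did not pass the test (33.3% called, beside 24.6% of all tested genes), and the median log2 fold change was 0.13. DDX23, a helicase of the U5 particle that is itself a target of SRPK kinases, went from 72.8, 67.9 and 72.3 CPM to 88.3, 98.6 and 95.9 CPM (log2 fold change 0.41, SE 0.06, edgeR adjusted p = 1.139e-05). EFTUD2, the U5 GTPase, and SNRNP40, a WD-repeat protein of U5, had log2 fold changes of 0.34 (SE 0.05) and 0.31 (SE 0.07). The groups of these 3, picked for the smallest adjusted p of the list, did not overlap. Over the list, the groups did not overlap in 7 of 15 genes (46.7%), beside 38.8% of all tested genes.

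Of 18 cyclins and other kinases of transcription, with RNA polymerase II, 2 were higher, 1 was lower and 15 did not pass the test (3 of 18 called, beside 24.6% of all tested genes), and the median log2 fold change was 0.02. CCNK, the cyclin of CDK12 and CDK13, was at 25.4, 26.3 and 23.9 CPM in si-NC and 23.2, 21.0 and 23.0 CPM in si-SRSF11. The groups did not overlap, but the log2 fold change of -0.17 (SE 0.08, 95% interval -0.34 to 0.00) did not pass (edgeR adjusted p = 0.144). CCNL2, an RS-domain cyclin that pairs with CDK11, fell from 163 ± 0.44 to 139 ± 3.34 CPM, with a log2 fold change of -0.22 (SE 0.05, adjusted p = 0.00109). CCNT2, a cyclin of CDK9, rose by 0.33 (SE 0.07), and POLR2A, the large subunit of RNA polymerase II, by 0.19 (SE 0.06).

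The DNA repair genes that are known to depend on CDK12 were examined because their long transcripts need the kinase for full elongation. Of 23 listed genes 22 were tested, with 2 higher, 2 lower and a median log2 fold change of 0.05. ATR, a kinase of the replication checkpoint, was at 9.15, 10.5 and 9.29 CPM in si-NC and 13.5, 15.6 and 11.8 CPM in si-SRSF11 (log2 fold change 0.50, SE 0.12). RAD51C and BRCA1, both of homologous recombination, had log2 fold changes of -0.33 (SE 0.08) and -0.27 (SE 0.08). Of those tested 18.2% were called, beside 24.6% of all tested genes.

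Of 23 related kinases, which include further DYRK, HIPK, PAK, AKT and PIM kinases, 20 were tested, with 3 higher, 5 lower and a median log2 fold change of -0.06. These are 40.0% called, beside 24.6% of all tested genes, and the number called was 4 with DESeq2 and 3 without si-NC replicate 3. SRPK3, the muscle relative of SRPK1, was at 3.72, 4.40 and 5.00 CPM in si-NC and 2.17, 2.64 and 3.00 CPM in si-SRSF11, a log2 fold change of -0.75 (SE 0.21, edgeR adjusted p = 0.0106). PIM1, a cytokine-induced serine/threonine kinase, fell from 109, 106 and 112 CPM to 74.9, 75.1 and 74.4 CPM, a log2 fold change of -0.55 (SE 0.05, edgeR adjusted p = 4.603e-08), and its groups were far apart. NEK2, a mitotic kinase, had a log2 fold change of -0.41 (SE 0.07). PAK5, the kinase that the study links to SRSF11, had 0 counts in each of the 6 libraries, which allows up to 0.184 to 0.206 CPM per library (3 counts, counting error only). Its transcript was therefore not detectable at this depth, and protein was not measured here. The study reported endogenous PAK5 protein bound to SRSF11 in LoVo cells, by co-immunoprecipitation.

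Of 15 phosphatases, import factors and scaffolds that act against or beside these kinases, 3 were higher and none lower (20.0% called, beside 24.6% of all tested genes), and the median log2 fold change was 0.07. PPP1CB, a catalytic subunit of protein phosphatase 1, went from 134 ± 2.78 to 148 ± 4.32 CPM, and PPP1R8, its nuclear inhibitor in speckles, from 39.7 ± 0.46 to 46.8 ± 2.72 CPM. RANBP2, a nucleoporin, went from 27.3 ± 3.02 to 35.1 ± 0.56 CPM. TNPO3, the importer of phosphorylated SR proteins, had a log2 fold change of -0.09 (SE 0.05) and did not pass the test.

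**Figure D5:**
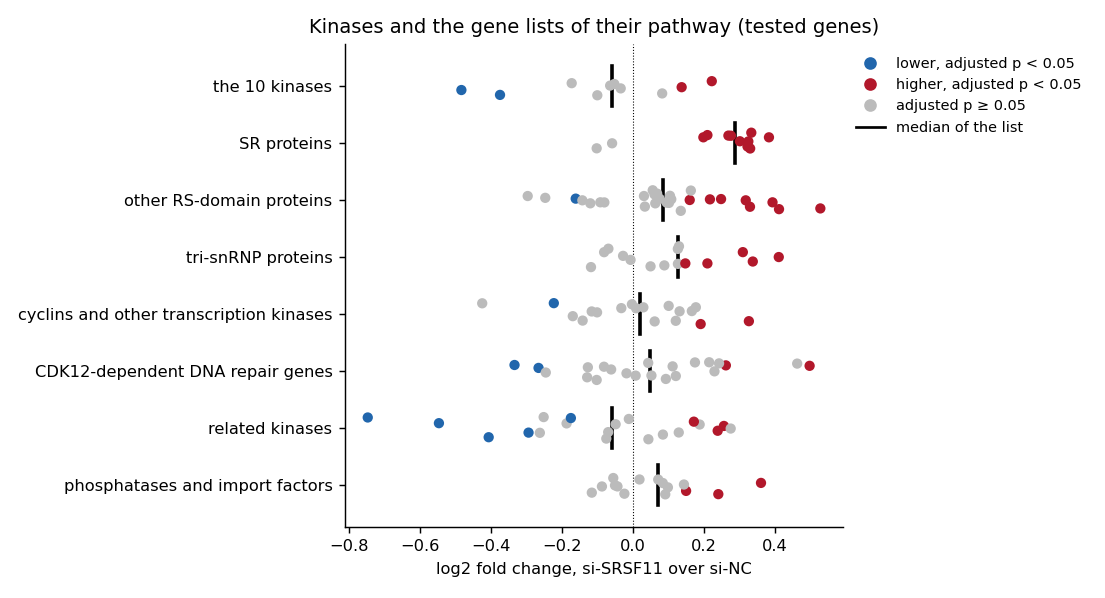
Log2 fold change, si-SRSF11 over si-NC, of each tested gene (points) in the 10 kinases and in 7 lists of their substrates, partners, targets and relatives, with genes past the adjusted p threshold in blue (lower) or red (higher), the others in grey, and the list's median as a black bar. The points of the SR proteins lie mostly to the right of 0 (median 0.29), and those of the 10 kinases lie on both sides (median -0.06).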

How the data were processed

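Poly-A RNA of LoVo cells (3 si-NC and 3 si-SRSF11 samples) was sequenced by the authors as paired-end reads of 150 bp. The authors deposited raw counts per gene in 1 table, with no normalization, and the submitters' processing notes name hg38. The aligner and counter are not given in the sources used here. The table matched GENCODE 29 for 58724 of 58735 genes in start, end and exon length.

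The deposited table was used without change. Genes were tested where 3 or more libraries held 10 or more counts each, which left 15801. TMM factors scaled the libraries, glmQLFit and glmQLFTest of edgeR (4.0.16, under R 4.3.3) tested condition as the only term, and p was adjusted over all 15801 genes (Benjamini-Hochberg). For ratios of related genes an exact permutation test, two-sided, was used. DESeq2 (1.42.0), other scalings and filters, the replicate block and fits without 1 library were the alternatives. The fit was tested on simulated data.

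The members and the gene lists were chosen with earlier results of these data known. The named genes are the members, SRSF11, PAK5, CCNK, up to 3 genes per list with the smallest adjusted p under 0.05, pseudogenes of members and genes sharing their exon bases. Names beyond these (TNPO3, KRT20, CEACAM5, COL1A1, ACTA2, SRSF9 and TRA2A) were chosen after their values were seen. The permutation test cannot go below 0.1, and intervals cover these samples only.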

Additional observations from a re-analysis of the deposited data

How the results depend on the processing

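Of the 14 alternatives, none reversed the direction of a kinase gene or of SRSF11, and of the lists only the number called was recomputed. The number of kinase genes called was 4, with a range of 2 to 4 when 1 library was left out (2 without si-NC replicate 1 or si-SRSF11 replicate 2). Of these, 2 were higher, but 1 with DESeq2, the upper quartile, DESeq2 size factors in edgeR, no filter on low counts or protein-coding genes only, 0 with library size alone, and 0 to 2 without 1 library. The 2 that were lower ranged from 1 to 2 without 1 library, and library size alone gave 3, since CLK2 passed as well. Library size alone gave 1588 higher and 2286 lower genes, against 2081 and 1804 with TMM. CDK12-dependent DNA repair genes past the threshold, 4, ranged from 2 to 5 without 1 library, and related kinases, 8, from 3 to 7, with 4 by DESeq2. CLK1 was called in 14 of 14 alternatives, CLK4 in 13, PRPF4B in 11 and SRPK1 in 4. CLK1 fell in each of them by a log2 fold change between -0.53 and -0.46. In deviations from their group means, same-numbered samples correlated at 0.01, 0.04 and 0.05, and differently numbered ones at -0.0501 to 0.005. These small values do not settle whether replicate numbers pair the samples. The replicate block gave 4 kinase genes called, with 2 higher and 2 lower, and 4036 genes in all. Depth limited CLK4 most, whose 147 to 198 counts gave an SE of 0.11, against 0.05 for SRPK1. The main transcript length was added after the data were seen.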
